A study of Mus musculus with 44 samples.

Results

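The 10 genes described here belong to the type 2 immune circuit and were followed in the gastric corpus of mice with and without the beta subunit of the H+/K+ATPase, the acid pump of parietal cells. They comprised the tuft cell genes Dclk1, Trpm5 and Pou2f3, the cytokine genes Il25 and Il33 with the IL-33 receptor gene Il1rl1, the type 2 cytokine gene Il13, and the mast cell protease genes Mcpt1, Mcpt2 and Cpa3. They were taken by name, as a circuit linked in earlier work to spasmolytic polypeptide-expressing metaplasia (SPEM), and are 10 of the 31484 genes obtained by summing the transcripts of each gene. All 10 were found in the data, and 8 had enough counts to be tested across all genes. Il25 and Il13 fell below that limit and were followed by their counts.

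Tuft cells are rare chemosensory epithelial cells of the gut. They release IL-25, and damaged or stressed epithelial and stromal cells release IL-33, and both alarmins act on group 2 innate lymphoid cells (ILC2) and T helper 2 cells, which answer with IL-13. IL-13 drives mucus and metaplasia programmes in epithelium, mast cells carry the IL-33 receptor ST2, and mucosal mast cells store chymases that are known from worm infection of the gut. In the stomach, loss of parietal cells is accompanied by SPEM, in which cells deep in the gland express Tff2, the gene of trefoil factor 2.

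Messenger RNA was sequenced from 44 libraries of the gastric corpus of mice on a BalbC background aged 13 months. Wild-type mice received PEG vehicle (WT/PEG, 11 libraries) or netazepide (NTZ, labelled yf; WT/NTZ, 9 libraries), a gastrin receptor antagonist, and knockout mice received the same (KO/PEG, 13 libraries; KO/NTZ, 11 libraries). The knockout lacks the pump subunit in the whole animal from birth, so these mice lived without gastric acid and with high gastrin, and every group was injected with PEG or with NTZ dissolved in it. Levels are CPM (counts scaled to a common library total) after TMM normalization of the authors' estimated counts.

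The deleted gene, Atp4b, lay between 2139 and 5738 CPM in the WT libraries and between 2.28 and 40.6 CPM in the KO libraries, so each library carried the genotype of its label. The summed level of 6 parietal cell genes had a median of 12400 CPM in WT/PEG and 3720 CPM in KO/PEG, and that of 7 SPEM genes had a median of 2170 and 32000 CPM. The total estimated count lay between 6065084 and 21945124 per library, and 3 counts, taken as the smallest signal, correspond to 0.137 to 0.495 CPM. Several measures of the libraries moved with genotype, and whether they reflect tissue or preparation was not tested. The median mitochondrial share of counts was 9.53% with PEG and 9.38% with NTZ in WT mice, and 4.83% with PEG and 3.78% with NTZ in KO mice. The slope of log2 CPM on log2 transcript length, relative to the mean of all libraries, lay between 0.0776 and 0.35 in the WT libraries, between -0.373 and 0.166 in KO/PEG and between -0.336 and -0.0688 in KO/NTZ, so KO libraries held relatively more of short transcripts. Animal numbers of 100 or above were borne by all 11 WT/PEG libraries, 4 of WT/NTZ, 7 of KO/PEG and 1 of KO/NTZ. What such a number stands for is not given in the sources used here, and number and group are partly confounded. Single libraries are named here by genotype and animal number. Library KO_46 stood apart in KO/PEG, with a mitochondrial share of 14.4%, the slope of 0.166 and 34.6 CPM of the leukocyte gene Ptprc, against 1.13 to 10.8 CPM in the other 12. Library WT_118 stood apart in WT/NTZ, with 26 CPM of Ptprc against 3.93 to 8.47 CPM in the other 8. Either was left out in a check chosen after seeing the data. Then 7 of the 10 genes still passed between KO and WT under each treatment, and 0 between NTZ and PEG in either genotype. These were the same numbers as with all 44 libraries, where 8 of the 10 were tested. With all 44, 74.7% of all genes tested passed between KO and WT with PEG and 72.4% with NTZ. Between NTZ and PEG 5.56% passed in KO and 1.03% in WT.

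**Figure D1:**
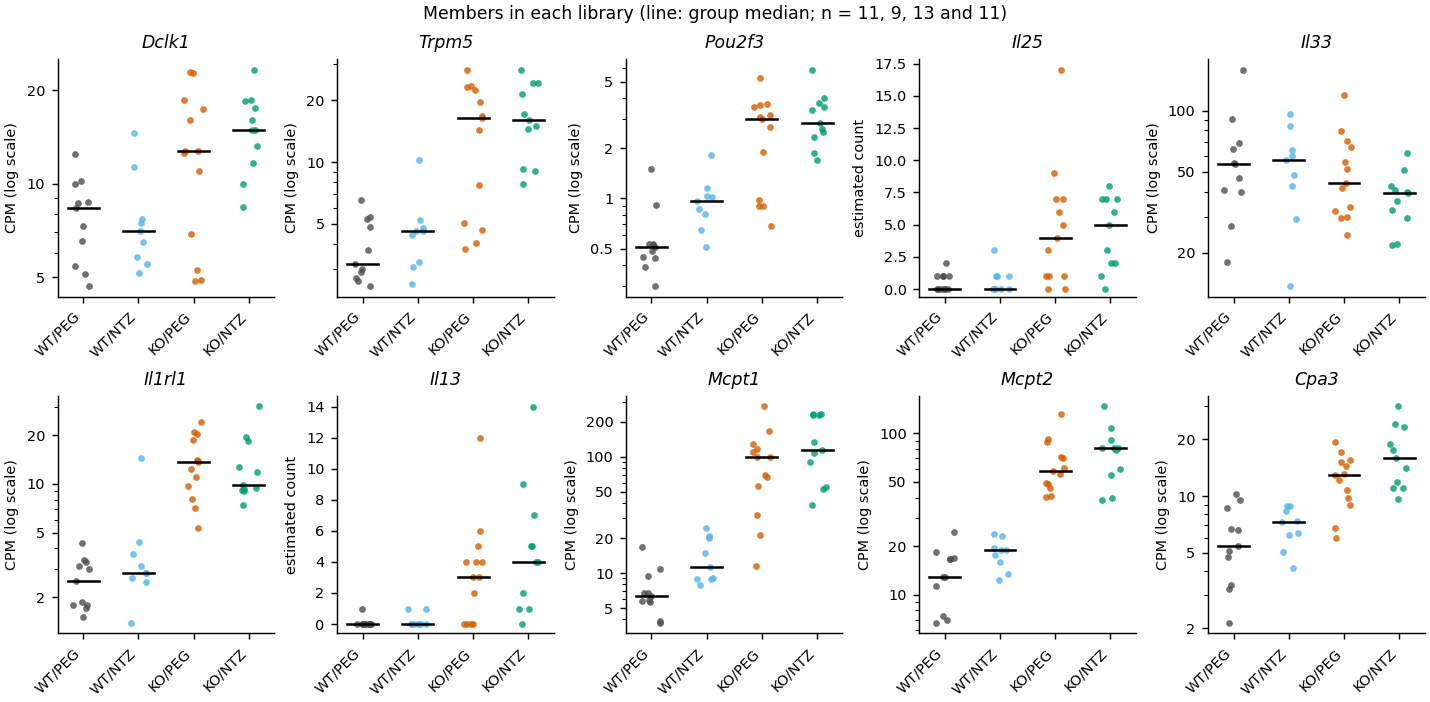
Levels of the 10 genes in each of the 44 libraries, in CPM on a log scale or, for Il25 and Il13, as estimated counts on a linear scale; each point is 1 library and each line a group median. The KO points of Il1rl1, Mcpt1 and Mcpt2 lie mostly above the WT points, while those of Il33 lie among them.

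Of the 8 genes tested in KO/PEG against WT/PEG, 7 were higher at an adjusted p below 0.05 and none was lower. In this comparison 74.7% of the 14901 genes tested passed, with 37.5% higher and 37.2% lower, so a pass in either direction was the common outcome. Mcpt1 had the largest difference at 13.1-fold, followed by Il1rl1 at 5.34-fold, Mcpt2 at 4.80-fold, Pou2f3 at 4.29-fold, Trpm5 at 3.75-fold, Cpa3 at 2.08-fold and Dclk1 at 1.63-fold. The filter on low counts asks for about 10 counts in at least 9 libraries. Pou2f3 did not reach this in the WT libraries alone, as was so for 7.44% of the genes tested, so it was tested only owing to its KO levels and the filter favoured a higher value in KO. Il33 did not pass (log2 fold change -0.22, 95% interval -0.76 to 0.32, adjusted p = 0.472 by edgeR's quasi-likelihood test). Under NTZ, the same 7 genes were higher in KO/NTZ than in WT/NTZ, where 72.4% of the genes passed, with 35.6% higher and 36.8% lower, and Il33 again did not pass. A higher level in whole mucosa can come from more cells of a type or from more RNA per cell, and these cannot be told apart here.

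**Figure D2:**
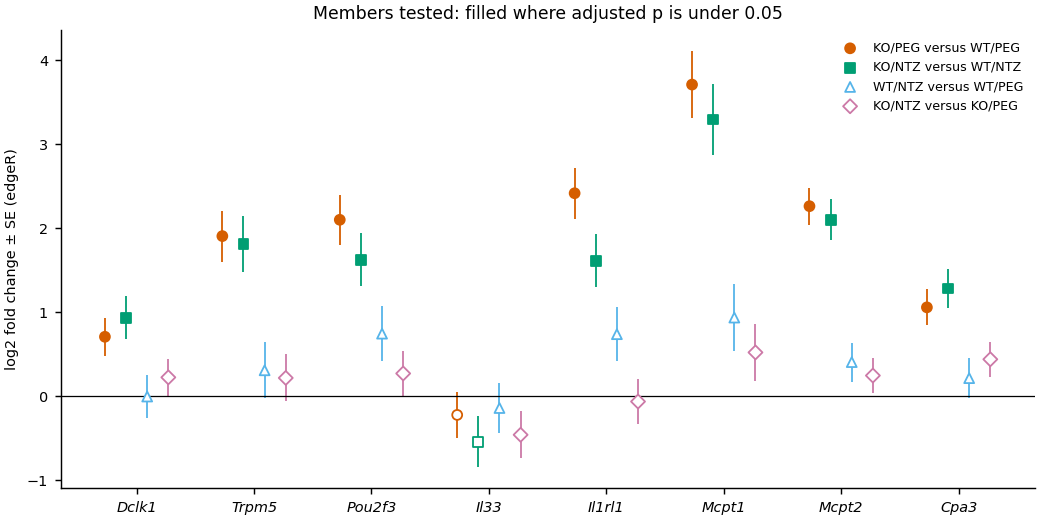
Log2 fold changes with SE from edgeR for the 8 genes tested, in 4 comparisons; filled symbols passed at an adjusted p below 0.05. The 2 comparisons of KO with WT lie well above 0 for 7 genes, and none of the comparisons of NTZ with PEG is filled.

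Among the tuft cell genes, Trpm5 encodes the cation channel that depolarizes tuft and taste cells after a chemical stimulus and lies on chromosome 7 from 143069153 to 143094642 (GRCm38). Its level (lowest, median, highest) was 2.50, 3.20 and 6.51 CPM in WT/PEG, 2.55, 4.62 and 10.3 CPM in WT/NTZ, 3.78, 16.4 and 28.2 CPM in KO/PEG, and 7.84, 16.1 and 28.2 CPM in KO/NTZ. In KO/PEG, 9 of 13 libraries lay above every WT/PEG library and 4 lay among them. The log2 fold change between KO/PEG and WT/PEG was 1.91 (SE 0.304, adjusted p = 5.92e-07 by edgeR). With the length slope as a covariate it was 1.07 (adjusted p = 0.0943), and 1.13 (adjusted p = 0.0787) between KO/NTZ and WT/NTZ, by edgeR.

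The transcripts of Trpm5 differed unevenly. The long coding transcript, ENSMUST00000009390, had medians of 2.71 CPM in WT/PEG and 2.07 CPM in KO/PEG and did not pass with PEG (log2 fold change 0.79, adjusted p = 0.375 by edgeR) or with NTZ (adjusted p = 0.65 by edgeR). ENSMUST00000126776, a shorter transcript annotated as holding a retained intron, passed, being at 0 in 10 of 11 WT/PEG libraries and 6 of 9 WT/NTZ libraries, and between 0.569 and 21.3 CPM in KO/PEG and between 2.61 and 19.99 CPM in KO/NTZ (adjusted p = 1.72e-09 and 1.65e-06 by edgeR). All retained-intron transcripts together held 36.2% ± 30.2 (SD, n = 11) of the Trpm5 counts in WT/PEG, 43.9% ± 29.6 (n = 9) in WT/NTZ, 63.7% ± 24.1 (n = 13) in KO/PEG and 76.9% ± 17.7 (n = 11) in KO/NTZ. The share was higher in KO/PEG than in WT/PEG (permutation test, adjusted p = 0.0456 over 20 tests of shares and ratios) and in KO/NTZ than in WT/NTZ (exact permutation test, adjusted p = 0.0219). The first was lost without library KO_46 (adjusted p = 0.0642 by the permutation test), without the libraries numbered 110 (adjusted p = 0.0675 by the permutation test) and among animals numbered 100 or above (adjusted p = 0.159 by the exact permutation test). Of the 31-base stretches of the coding transcript 0.88% are its own, and of those of ENSMUST00000126776 16.0%, so the division between them is uncertain, and KO libraries held relatively more of short transcripts.

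Pou2f3 encodes the POU transcription factor without which tuft cells do not form and lies on chromosome 9 from 43123939 to 43210369. It was the scarcest of the genes tested, at 0.299, 0.512 and 1.49 CPM in WT/PEG, 0.511, 0.960 and 1.82 CPM in WT/NTZ, 0.687, 2.97 and 5.27 CPM in KO/PEG and 1.69, 2.84 and 5.87 CPM in KO/NTZ. Again 9 of 13 KO/PEG libraries stood above the WT/PEG range, and under NTZ 10 of 11 KO libraries stood above the WT range. By edgeR the log2 fold change was 2.10 (SE 0.297, adjusted p = 6e-08) in the PEG groups and 1.63 (adjusted p = 1.55e-05) in the NTZ groups. With the length slope as a covariate these were 1.33 (adjusted p = 0.027) and 0.999 (adjusted p = 0.0993) by edgeR. Of the gene's stretches of 31 bases, 4.07% also occur in other genes.

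Dclk1 encodes a microtubule-bound kinase used as the standard histological marker of tuft cells, and lies on chromosome 3 from 55242364 to 55539068. It measured 4.69, 8.36 and 12.5 CPM in WT/PEG, 5.16, 7.06 and 14.6 CPM in WT/NTZ, 4.85, 12.8 and 22.9 CPM in KO/PEG and 8.45, 14.9 and 23.3 CPM in KO/NTZ. The ranges of KO and WT overlapped widely, with 8 of 13 KO/PEG libraries above all WT/PEG libraries. The log2 fold change of 0.71 (SE 0.228, adjusted p = 0.00534 by edgeR) was the smallest that passed. It was 0.54 with an adjusted p of 0.0661 by edgeR among animals numbered 100 or above.

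Dclk1 is transcribed from an upstream start, whose long product is known from neurons, and from a downstream start. RefSeq lists a promoter for each, both on the plus strand of GRCm38.p6, and they are shown because the counts were divided between transcripts from either start. The windows run from 250 bases before to 50 bases after the start, and capitals mark a GATA motif (the letters AGATAA, or with another first base TGATAA, or the forms that end in G, which are AGATAG and, with the other first base, TGATAG, on either strand).
Dclk1 upstream promoter, chr3:55242114-55242413: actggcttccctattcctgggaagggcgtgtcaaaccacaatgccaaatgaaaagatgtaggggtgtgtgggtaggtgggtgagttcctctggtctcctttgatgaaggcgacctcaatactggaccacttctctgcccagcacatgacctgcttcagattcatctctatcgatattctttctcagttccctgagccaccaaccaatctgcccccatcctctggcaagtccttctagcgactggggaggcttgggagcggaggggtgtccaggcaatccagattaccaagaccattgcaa
Dclk1 downstream promoter, chr3:55461478-55461777: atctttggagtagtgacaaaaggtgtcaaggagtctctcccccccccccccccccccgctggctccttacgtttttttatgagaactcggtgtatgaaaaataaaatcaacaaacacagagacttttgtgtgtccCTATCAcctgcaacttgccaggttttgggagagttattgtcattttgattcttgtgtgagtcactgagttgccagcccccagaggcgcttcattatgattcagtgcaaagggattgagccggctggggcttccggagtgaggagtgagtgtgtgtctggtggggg
Transcripts from the downstream start held 57.2% ± 20.3 (SD, n = 11) of the Dclk1 counts in WT/PEG, 79.3% ± 17.8 (n = 9) in WT/NTZ, 81.4% ± 19.3 (n = 13) in KO/PEG and 88.2% ± 11.2 (n = 11) in KO/NTZ. The share was higher in KO/PEG than in WT/PEG by 24.2 percentage points (permutation test, two-sided, adjusted p = 0.0219 over 20 such tests of shares and ratios). KO/NTZ and WT/NTZ did not differ past the threshold (exact permutation test, adjusted p = 0.236). In WT mice the share was 22.1 points higher with NTZ (exact permutation test, adjusted p = 0.0449), and among animals numbered 100 or above this was 20.7 points with an adjusted p of 0.159 by the exact permutation test. The most abundant downstream transcript, ENSMUST00000070418, shares all of its 31-base stretches with other Dclk1 transcripts, so its count rests on how kallisto divided shared reads.

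The KO/PEG libraries fell into separate sets by these 3 genes. Libraries KO_52, KO_111, KO_143 and KO_144 had 4.66, 4.04, 5.06 and 3.78 CPM of Trpm5, while the other 9 had between 7.70 and 28.2 CPM. Pou2f3 and Dclk1 were also lowest in those 4 libraries, and their Il25 counts were 0, 0, 1 and 1. They were not uniform in other genes, with 11.5, 70.5, 66.9 and 99.8 CPM of Mcpt1 and 2470, 28100, 14900 and 2370 CPM of Tff2, in the same order. Both low and high values of Mcpt1 and of Tff2 therefore occurred in KO/PEG libraries with tuft cell genes at the WT level. Within the other 9, Pou2f3 and Trpm5 had a Pearson r of 0.834 (exact permutation p = 0.00803, adjusted p = 0.0224 over 5 relations) and a Spearman rho of 0.733 (exact permutation p = 0.0311, adjusted p = 0.0777), and r was 0.251 without the 2 libraries farthest from the median, so it rests on those. In KO/NTZ, where no such set stood apart, r was 0.770 (permutation p = 0.00525, adjusted p = 0.0175 over 30 relations), rho was 0.900 (permutation p = 0.00043, adjusted p = 0.00322) and r without the 2 farthest libraries was 0.936. Among the 10 KO/NTZ animals numbered below 100, r was 0.752 (permutation p adjusted to 0.0903) and rho was 0.891 (permutation p adjusted to 0.0246). Dclk1 and Trpm5 had r = 0.9 over all KO/PEG libraries (permutation test, adjusted p = 0.0012). Within the 9 it was 0.43 (exact permutation test, adjusted p = 0.319) and in KO/NTZ 0.532 (permutation test, adjusted p = 0.215), and neither passed. The 9 were set apart by Trpm5 itself, which narrows its range.

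**Figure D3:**
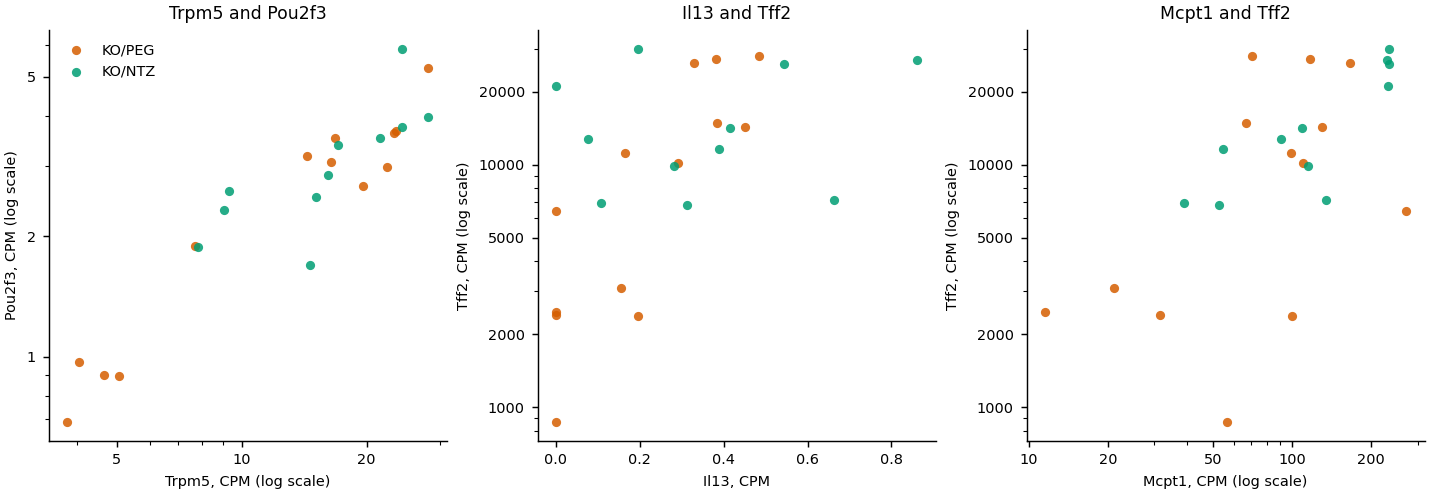
Pairs of genes in the KO libraries, in CPM on log scales except Il13, which is linear; each point is 1 library of KO/PEG (n = 13) or KO/NTZ (n = 11). In the left panel 4 KO/PEG libraries lie apart at the low end of Trpm5 and Pou2f3, and in the middle panel the KO/PEG libraries with no Il13 count lie at the low end of Tff2.

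Over a list of 30 tuft cell genes, 27 could be tested, and in KO/PEG against WT/PEG 24 were higher and none lower. Among all genes tested 37.5% were higher and 37.2% lower. The median log2 fold change was 1.73 for the list and -0.00288 over all genes tested. The largest differences in log2 fold change were those of Gng13, a G protein subunit of the taste cascade (4.24, adjusted p = 2.01e-08 by edgeR), Ly6g6f (3.33), Gfi1b, a transcription factor of tuft cells (3.20), Ltc4s, the enzyme that makes leukotriene C4 (3.14), and the kinase gene Matk (2.92). Of the 27, 18 reached the limit of the count filter in the WT libraries alone, and 16 of these were higher and none lower. The other 9 include Gng13, Ly6g6f and Gfi1b, with medians of 3, 2 and 1 counts in WT/PEG, so the filter favoured a higher value in KO for them and their folds rest on few WT counts. Gnat3, gustducin of the taste cascade, had a log2 fold change of -0.04 and did not pass, nor did Ptgs1 and Espn. Under NTZ 23 of the 27 were higher in KO and none lower.

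Outside the 10 genes, those whose variation among the 44 libraries, after group means were taken out, was most like that of the 3 tuft cell genes were for the most part on the same list. For Trpm5 they included Sh2d6 (r = 0.864) and Alox5 (0.863), for Pou2f3 Sh2d6 (0.867), Spib (0.816) and Sh2d7 (0.804), and for Dclk1 Strip2 (0.835), Rgs13 (0.820) and Sh2d7 (0.810). Trpm5 itself had r = 0.884 with Pou2f3 and 0.825 with Dclk1, over libraries that include the KO/PEG set low in tuft cell genes. These values are descriptions over libraries that share preparation and depth differences.

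Among the alarmins, Il25, the cytokine released by tuft cells, lies on chromosome 14 from 54932695 to 54935837 and was close to the limit of detection. The libraries of WT/PEG held 6 counts in all, with 6 of 11 at 0, and those of WT/NTZ held 6 counts, with 5 of 9 at 0. KO/PEG held 61 counts (0 to 17 per library, 2 of 13 at 0) and KO/NTZ 48 counts (0 to 8 per library, 1 of 11 at 0). Ranges overlapped, since KO libraries without a count occurred in both groups. Relative to the library totals the pooled level was 6.33 times higher in KO/PEG than in WT/PEG (95% interval 2.75 to 17.9 for counting error only), and the mean CPM differed by a permutation test (p = 0.00296, adjusted p = 0.00789 over 8 tests of Il25 and Il13). Between KO/NTZ and WT/NTZ the ratio was 5.39 (2.30 to 15.4, exact permutation p = 0.00591, adjusted p = 0.0118), with an adjusted exact permutation p of 0.118 when only animals numbered below 100 were kept. Over the 9 KO/PEG libraries with the higher Trpm5 levels, Il25 rose with Trpm5 (Pearson r = 0.783, exact permutation p = 0.00894, adjusted p = 0.0224; Spearman rho = 0.883, exact permutation p = 0.00308, adjusted p = 0.0154), and r was 0.513 without the 2 libraries farthest from the median of Trpm5. In KO/NTZ neither r (0.478) nor rho (0.518) passed (permutation test, adjusted p = 0.275 and 0.247).

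Il33, on chromosome 19 from 29925114 to 29960718, encodes an alarmin held in the nucleus until a cell is damaged. Per kilobase of transcript it was the most abundant of the 10 genes in WT/PEG, with a median of 21.6 CPM per kilobase, and in KO/PEG it came after Mcpt1 and Mcpt2. Its CPM were 17.9, 54.7 and 159 in WT/PEG, 13.8, 57.4 and 96.7 in WT/NTZ, 24.5, 44.3 and 119 in KO/PEG and 21.8, 39.5 and 62.1 in KO/NTZ. No KO library stood above the WT range of its treatment. Between KO/NTZ and WT/NTZ the log2 fold change was -0.54 (SE 0.303, adjusted p = 0.106 by edgeR). The share of ENSMUST00000025724 among the Il33 counts was 79.6% ± 17.0 (SD, n = 9) in WT/NTZ and 17.2% ± 30.04 (n = 11) in KO/NTZ (exact permutation test, adjusted p = 0.00137). With PEG it was 73.7% ± 20.8 (n = 11) in WT and 45.97% ± 30.3 (n = 13) in KO (permutation test, adjusted p = 0.0449), which was lost without the libraries numbered 110 (adjusted p = 0.0585 by the permutation test) and among animals numbered 100 or above (adjusted p = 0.0548 by the exact permutation test). However, only 2.63% of its 31-base stretches are its own, so the division between it and the transcript ENSMUST00000120388 is uncertain.

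Il1rl1 encodes ST2, the IL-33 receptor of mast cells, ILC2 and T helper 2 cells, and lies on chromosome 1 from 40429570 to 40465415. Its level was 1.497, 2.52 and 4.32 CPM in WT/PEG, 1.39, 2.81 and 14.5 CPM in WT/NTZ, 5.32, 13.6 and 24.2 CPM in KO/PEG and 7.45, 9.87 and 30.1 CPM in KO/NTZ. All 13 KO/PEG libraries lay above all 11 WT/PEG libraries, as was the case for 5.46% of the genes tested, while 8.88% lay wholly below. Under NTZ 3 of 11 KO libraries lay above the WT range, whose top was library WT_118, with 14.5 CPM against 4.35 CPM for the next. The log2 fold change was 2.42 (SE 0.302, adjusted p = 4.38e-09) in the PEG groups and 1.61 (SE 0.318, adjusted p = 2.22e-05) in the NTZ groups by edgeR. With the length slope as a covariate these were 1.58 (adjusted p = 0.00647) and 0.87 (adjusted p = 0.17) by edgeR.

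The Il1rl1 gene is known for a long transcript that encodes the receptor in the membrane and a short one that encodes a soluble decoy, and for a distal promoter used in mast cells and a proximal one used in fibroblasts. RefSeq lists both promoters on the plus strand, and they are shown because the difference between genotypes fell mainly on the short transcript. Capitals mark GATA motifs as above and the octamer ATGCAAAT, the letters bound by POU factors, on either strand.
Il1rl1 distal promoter, chr1:40429320-40429619: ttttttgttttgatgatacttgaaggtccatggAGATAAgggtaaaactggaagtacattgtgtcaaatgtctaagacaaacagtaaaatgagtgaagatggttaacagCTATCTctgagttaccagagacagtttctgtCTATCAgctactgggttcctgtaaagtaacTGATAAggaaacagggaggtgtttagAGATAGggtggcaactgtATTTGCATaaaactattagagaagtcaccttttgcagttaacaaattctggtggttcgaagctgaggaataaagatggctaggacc
Il1rl1 proximal promoter, chr1:40439379-40439678: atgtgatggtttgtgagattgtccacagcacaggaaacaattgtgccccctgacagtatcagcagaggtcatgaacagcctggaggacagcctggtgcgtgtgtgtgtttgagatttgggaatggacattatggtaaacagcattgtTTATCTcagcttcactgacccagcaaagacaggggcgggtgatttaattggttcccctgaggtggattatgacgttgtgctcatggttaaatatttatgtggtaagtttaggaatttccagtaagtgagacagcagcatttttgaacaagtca
As annotated, the short transcript starts at 40439776, near the proximal window. ENSMUST00000174335, which starts at 40429570 in the distal window, held 0.171% of the counts of the gene. The distal window held 5 GATA motifs and 1 octamer, none overlapping, and the proximal one held 1 GATA motif. Of 32851 RefSeq promoter windows of the same length, 29.8% held a GATA motif and 1.74% the octamer, so a single GATA motif is common. RefSeq windows were matched for 7 of the 10 genes, and 5 of the 7 held a GATA motif. These matches describe letters only.

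The short Il1rl1 transcript, ENSMUST00000173514, measured 0.00, 0.550 and 1.49 CPM in WT/PEG, 0.103, 0.427 and 11.2 CPM in WT/NTZ, 2.44, 8.47 and 17.7 CPM in KO/PEG and 3.26, 5.58 and 19.99 CPM in KO/NTZ. The long transcripts ENSMUST00000053043 and ENSMUST00000097772 together measured 1.002, 1.98 and 3.41 CPM in WT/PEG and 2.49, 4.64 and 6.22 CPM in KO/PEG. Every KO/PEG library lay above every WT/PEG library for the short transcript, while the ranges of the long ones overlapped. The share of all transcripts separated in this way was not determined. In the fit over 30782 transcripts the short transcript had a log2 fold change of 3.97 (adjusted p = 2.18e-06) and the long transcript ENSMUST00000053043 one of 0.95 (adjusted p = 0.00191), by edgeR. The share of the short form was taken per kilobase among the short and these long transcripts. It was 29.3% ± 22.1 (SD, n = 11) in WT/PEG, 32.8% ± 22.1 (n = 9) in WT/NTZ, 76.7% ± 9.55 (n = 13) in KO/PEG and 70.3% ± 9.46 (n = 11) in KO/NTZ. The difference between KO/PEG and WT/PEG was 47.4 percentage points (permutation p = 2e-05, the smallest these permutations can give, adjusted p = 0.0004) and that between KO/NTZ and WT/NTZ was 37.5 points (exact permutation test, adjusted p = 0.00137). Among animals numbered 100 or above it was 53.2 points (exact permutation test, adjusted p = 0.000314). Of the 31-base stretches of the short transcript 1425, or 54.2%, are its own, while the long transcript ENSMUST00000053043 has none. The short form is also the shorter molecule, and the libraries of KO mice held relatively more of short transcripts, so the part of that shift in this share cannot be told apart from genotype.

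**Figure D4:**
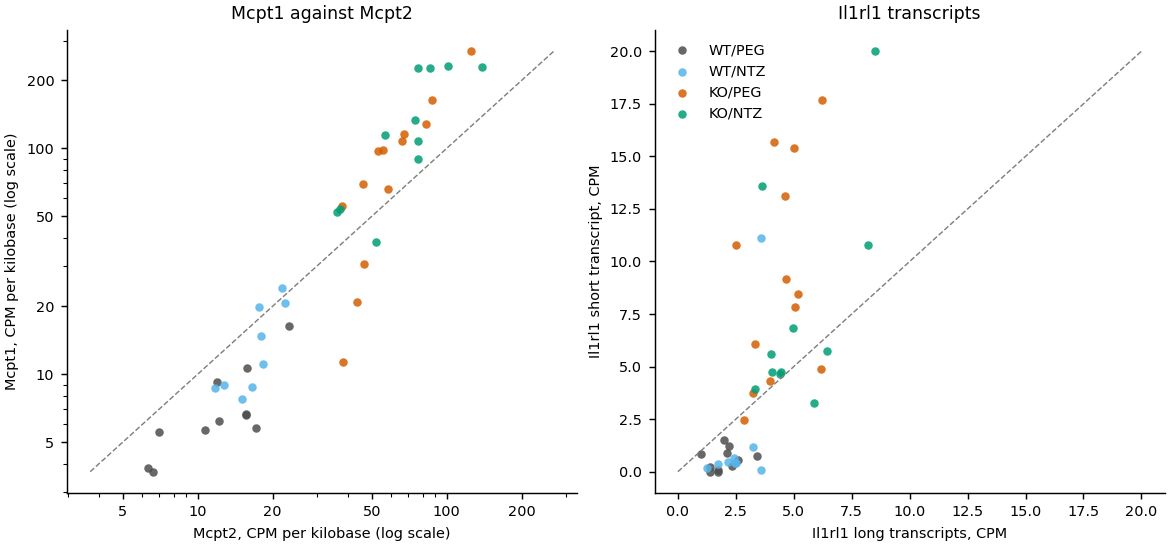
Left, Mcpt1 against Mcpt2 in CPM per kilobase on log scales. Right, the short against the long Il1rl1 transcripts in CPM. Each point is 1 of 44 libraries and the dashed line marks equal values. Most KO points lie above the line in both panels, and WT points mostly lie below it.

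Il33 and Il1rl1 varied together in KO/PEG (Pearson r = 0.732, permutation p = 0.00462, adjusted p = 0.0173 over 30 relations; Spearman rho = 0.769, permutation p = 0.00326, adjusted p = 0.0109). Without the 2 libraries farthest from the median of Il33, r was 0.697. Within animals numbered below 100 (n = 6) and 100 or above (n = 7), r was 0.641 and 0.785, with adjusted exact permutation p of 0.372 and 0.123. In KO/NTZ r was 0.579 (permutation p = 0.064, adjusted p = 0.175). Over all 44 libraries with group means taken out, the genes outside the 10 most like Il33 were Wdr77 (r = 0.750), Wdr4 (0.661) and Gnl3 (0.640), and those most like Il1rl1 were Tapbpl (0.659), Cldn2 (0.654) and Eif4a1 (0.617), with r = 0.530 between Il33 and Il1rl1.

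Of the 10 alarmin ligands and receptors listed, 8 were tested, and 5 were higher and 1 lower in KO/PEG than in WT/PEG (median log2 fold change 0.474), a share that does not stand out from the 74.7% of all genes that passed. Besides Il1rl1, Crlf2, the receptor chain for TSLP, was higher by 1.961 on the log2 scale (SE 0.174, adjusted p = 9.06e-13 by edgeR). Il17rb, the IL-25 receptor chain found on ILC2 and tuft cells, was higher by 1.47. However, Il17rb did not reach the limit of the count filter in the WT libraries alone, so the filter favoured a higher value in KO. Il1rap, the co-receptor that ST2 needs to signal, fell by 1.44 on the log2 scale (SE 0.257, adjusted p = 4.65e-06 by edgeR), from a median of 5.53 CPM in WT/PEG to 1.55 CPM in KO/PEG. Myd88 and Il17ra differed by only 0.36 and 0.17. Tslp was too low to test, with 34 counts over the 11 WT/PEG libraries and 44 over the 13 KO/PEG libraries.

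Il13, the effector cytokine of ILC2 and T helper 2 cells, lies on chromosome 11 from 53631324 to 53634702. A single count was found in the 11 WT/PEG libraries and 2 in the 9 WT/NTZ libraries. KO/PEG held 43 counts (0 to 12 per library, 4 of 13 at 0) and KO/NTZ 52 counts (0 to 14 per library, 1 of 11 at 0). In KO/PEG 9 of 13 libraries stood above all WT/PEG libraries, and those at 0 were KO_45, KO_46, KO_52 and KO_53, all numbered below 100. The pooled ratio of KO/PEG to WT/PEG was 26.8 (95% interval 4.55 to 1080 for counting error only, permutation p = 0.001, adjusted p = 0.004). That of KO/NTZ to WT/NTZ was 17.5 (lower end of the interval 4.61, exact permutation p = 0.000524, adjusted p = 0.004). Among animals numbered 100 or above, KO/PEG and WT/PEG again differed (exact permutation p = 6.28e-05), and among those below 100 KO/NTZ and WT/NTZ differed (exact permutation test, adjusted p = 0.016).

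In KO/PEG, Il13 rose with Tff2 (Pearson r = 0.811, permutation p = 0.00137, adjusted p = 0.00685; Spearman rho = 0.819, permutation p = 0.00098, adjusted p = 0.00588), and r was 0.724 without the 2 libraries farthest from the median of Il13. The 4 libraries without an Il13 count held between 868 and 6440 CPM of Tff2. Within the 6 animals numbered below 100 r was 0.700 and within the 7 others 0.726, and neither passed after adjustment (exact permutation test, adjusted p = 0.372 and 0.149). In KO/NTZ r was 0.0502 (permutation p = 0.883, adjusted p = 0.947). The relations of Il13 with Trpm5 (r = 0.0203) and with Mcpt1 (r = 0.386) in KO/PEG did not pass (permutation test, adjusted p = 0.971 and 0.346).

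Of 14 genes of type 2 cytokines and their receptors, 6 were tested. Areg, an epithelial growth factor made by ILC2 and epithelium, was higher in KO/PEG than in WT/PEG by 1.65 on the log2 scale, Il2rg by 1.47 and Il4ra, the shared receptor chain for IL-4 and IL-13, by 0.93. Its partner Il13ra1 fell by 0.79 on the log2 scale and the kinase gene Jak1 fell by 0.59. Il4 and Il5 were too scarce to test, with 53 and 1 counts in WT/PEG and 45 and 21 counts in KO/PEG, and Il9 had no count in any library. Of 5 ILC2 and T helper 2 genes tested, Bcl11b (1.31), Gata3 (1.23) and Icos (1.14) were higher, and Rora fell by 1.25 on the log2 scale, and the first 3 did not reach the limit of the count filter in the WT libraries alone. Leukocyte genes moved unevenly, with 5 of the 9 tested higher and none lower in KO/PEG, where 74.7% of all genes passed. Jchain, a gene of antibody-secreting cells, had medians of 23.8 CPM in WT/PEG and 258 CPM in KO/PEG and made up most of the sum over 12 leukocyte genes, whose median was 44.1 CPM in WT/PEG and 289 CPM in KO/PEG. Those that were higher also included Cd3e, Ms4a1 and Cd68, whereas the common leukocyte gene Ptprc, with medians of 4.85 and 4.05 CPM, and Cd4, Cd8a and Adgre1 did not pass. Between KO/NTZ and WT/NTZ 1 of the 9 was higher, Jchain, and 3 were lower, Ptprc, Cd8a and Adgre1. The part of the number of leukocytes in the values of Il1rl1 and Il13 was not tested.

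Of 13 genes that respond to IL-13 and were tested, 9 were higher in KO/PEG than in WT/PEG and none lower. Their median log2 fold change was 1.80. Over all genes tested 74.7% passed here, 37.5% higher and 37.2% lower, so a pass alone does not set this list apart. The limit of the count filter was reached in the WT libraries alone by 9 of the 13, of which 5 were higher. Itln1, the goblet cell lectin intelectin, had medians of 3.01 CPM in WT/PEG and 257 CPM in KO/PEG (log2 fold change 7.25, adjusted p = 3.78e-09 by edgeR). Chil4, a chitinase-like protein of type 2 inflammation, had 4.64 and 834 CPM (7.22), and Clca1, a goblet cell secretory protein, had 8.53 and 1051 CPM (6.62). Chil3 (4.93), which is not among those 9, and Fcgbp (3.83) followed. The lowest KO/PEG library held 0.654 CPM of Chil4 and 0.736 CPM of Itln1, inside the WT range, whereas that of Clca1 held 327 CPM against a highest WT/PEG value of 40.9 CPM.

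The mast cell chymase genes Mcpt1 and Mcpt2 lie near each other on chromosome 14, from 56017971 to 56020384 and from 56042041 to 56044642, and mark mucosal mast cells. Mcpt1 measured 3.70, 6.21 and 16.4 CPM per kilobase in WT/PEG, 7.80, 11.1 and 24.1 in WT/NTZ, 11.3, 97.7 and 269 in KO/PEG and 38.3, 114 and 231 in KO/NTZ. Of 13 KO/PEG libraries, 12 lay above all WT/PEG libraries, and library KO_52 lay within their range. By edgeR its log2 fold change was 3.71 (SE 0.399, adjusted p = 1.4e-10) in the PEG groups and 3.29 (SE 0.426, adjusted p = 1.42e-08) in the NTZ groups.

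Mcpt2 measured 6.32, 12.2 and 23.2 CPM per kilobase in WT/PEG, 11.7, 17.7 and 22.4 in WT/NTZ, 38.0, 55.4 and 125 in KO/PEG and 36.4, 76.4 and 139 in KO/NTZ. KO and WT did not overlap under either treatment, as was so with KO higher for 5.46% of the genes tested with PEG and 14.4% with NTZ. The log2 fold change was 2.26 (SE 0.221, adjusted p = 1.31e-11) in the PEG groups and 2.10 (adjusted p = 1.08e-09) in the NTZ groups, by edgeR. Of the 31-base stretches of Mcpt1 and Mcpt2, 34 occur in both, and 6.71% and 3.30% of them occur in any other gene, so most reads of either belong to it alone.

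Cpa3, which encodes the carboxypeptidase of mast cell granules, lies on chromosome 3 from 20215620 to 20242181. It measured 2.14, 5.44 and 10.2 CPM in WT/PEG, 4.18, 7.28 and 8.90 CPM in WT/NTZ, 6.03, 12.9 and 19.4 CPM in KO/PEG and 9.61, 15.9 and 29.8 CPM in KO/NTZ. KO and WT overlapped with PEG, where 9 of 13 KO libraries stood above the WT range, and did not overlap with NTZ. Mcpt1, Mcpt2 and Cpa3 were thus separate between KO/NTZ and WT/NTZ, as were 14.4% of the genes tested with KO higher. The log2 fold change of Cpa3 was 1.06 (SE 0.215, adjusted p = 3.15e-05) with PEG and 1.28 (SE 0.236, adjusted p = 8.19e-06) with NTZ, by edgeR. With the length slope as a covariate it was 0.68 (adjusted p = 0.169) and 0.94 (adjusted p = 0.0626), by edgeR.

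The RefSeq promoters of Mcpt1 and Cpa3 are shown with the GATA motif in capitals, since both genes differed between the genotypes, GATA factors are known to act in mast cells, and each window holds 1 such motif. The Cpa3 window is on the minus strand.
Mcpt1 promoter, chr14:56017714-56018013: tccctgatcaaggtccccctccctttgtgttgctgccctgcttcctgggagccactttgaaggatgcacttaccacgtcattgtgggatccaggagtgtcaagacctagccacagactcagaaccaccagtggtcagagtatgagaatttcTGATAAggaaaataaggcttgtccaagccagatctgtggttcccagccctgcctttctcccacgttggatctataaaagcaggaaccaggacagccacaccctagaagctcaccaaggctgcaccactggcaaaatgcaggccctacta
Cpa3 promoter, chr3:20242132-20242431: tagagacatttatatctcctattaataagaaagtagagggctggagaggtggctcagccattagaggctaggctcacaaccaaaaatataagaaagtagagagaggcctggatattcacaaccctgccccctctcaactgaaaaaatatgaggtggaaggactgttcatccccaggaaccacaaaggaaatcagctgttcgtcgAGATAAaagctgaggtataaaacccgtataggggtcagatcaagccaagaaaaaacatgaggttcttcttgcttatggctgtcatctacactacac
With GATA motifs in 29.8% of all promoters, their presence in these windows sets neither gene apart.

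The balance between the chymases also differed between genotypes. The ratio of Mcpt1 to Mcpt2 per kilobase (lowest, median, highest) was 0.336, 0.562 and 0.794 in WT/PEG, 0.520, 0.746 and 1.11 in WT/NTZ, 0.293, 1.54 and 2.16 in KO/PEG and 0.735, 1.66 and 2.97 in KO/NTZ. Mcpt2 was the more abundant of the pair in each WT/PEG library, and Mcpt1 in most KO libraries. On the log2 scale the ratio was higher by 1.13 in KO/PEG than in WT/PEG (permutation p = 0.00118, adjusted p = 0.00472) and by 1.13 in KO/NTZ than in WT/NTZ (exact permutation test, adjusted p = 0.00137). Among animals numbered 100 or above the first difference was 1.54 (exact permutation test, adjusted p = 0.000314). Between WT/NTZ and WT/PEG it was 0.44 (exact permutation test, adjusted p = 0.0469), with an adjusted p of 0.0704 among animals numbered 100 or above , of 0.0793 without library WT_118 and of 0.0548 with the pair of WT/PEG libraries that bear one number averaged, by the exact permutation test.

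Mcpt1 and Mcpt2 varied together in KO/PEG (Pearson r = 0.836, permutation p = 0.00051, adjusted p = 0.00382; Spearman rho = 0.918, permutation p = 5e-05, adjusted p = 0.00075; r = 0.880 without the 2 farthest libraries). Within animals numbered below 100 and 100 or above r was 0.887 and 0.849 (exact permutation test, adjusted p = 0.0903 and 0.0871). In KO/NTZ, libraries KO_23, KO_29, KO_30 and KO_37 stood apart with 230 to 234 CPM of Mcpt1, against 38.8 to 135 CPM in the other 7. Those 4 also held the highest Tff2 levels of the group, 21100 to 30000 CPM. Their mitochondrial shares, 1.85% to 2.86%, were the lowest of the group (next 3.10%), and their length slopes lay between -0.336 and -0.251. The part of these library measures in the levels of Mcpt1 and Tff2 was not tested. Over all 11 KO/NTZ libraries r was 0.833 between Mcpt1 and Mcpt2 and 0.827 between Mcpt1 and Tff2 (permutation test, adjusted p = 0.00685 and 0.011). In KO/PEG r between Mcpt1 and Tff2 was 0.529 and did not pass (permutation test, adjusted p = 0.175). Within the other 7 of KO/NTZ, the 2 values were 0.728 and 0.357 (exact permutation test, adjusted p = 0.128 and 0.416 over 5 relations). Those 7 were set apart by Mcpt1 itself, which narrows its range, so a lower r there does not show a weaker relation. Outside the 10 genes, those most like Mcpt2 over the 44 libraries, with group means taken out, were the other mast cell proteases Tpsab1 (r = 0.882), Tpsb2 (0.868) and Cma1 (0.830), which were also those outside the 10 most like Cpa3 (0.775, 0.785 and 0.785). For Mcpt1 they were Bdh2 (0.773), Farsb (0.748) and Tph1 (0.734). Within the 10 genes r was higher still, at 0.779 between Mcpt1 and Mcpt2 and, for Cpa3, at 0.813 with Mcpt2.

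Of 18 mast cell genes tested, 12 were higher and 4 lower in KO/PEG than in WT/PEG, with a median log2 fold change of 1.08. Among all genes tested 37.5% were higher and 37.2% lower. Fcer1a, the binding chain of the IgE receptor, was higher by 2.53 on the log2 scale (adjusted p = 3.07e-09 by edgeR), the steroid enzyme gene Cyp11a1 by 1.53 and the chymase gene Cma1 by 1.42, of which Fcer1a and Cyp11a1 did not reach the limit of the count filter in the WT libraries alone. Kit, the stem cell factor receptor, fell by 1.71 on the log2 scale, and the transcription factor gene Mitf fell by 1.86. Both are known from other cells too, Kit from the pacemaker cells of the gut wall, and muscle genes were lower as well, with a summed median of 1920 CPM over 6 genes in WT/PEG and 862 CPM in KO/PEG. The part of the muscle layer in the values of Kit was not tested. Of 13 eosinophil and basophil genes listed, 8 were too low to test, among them Epx with 0 counts in WT/PEG and 1 in KO/PEG. The 5 tested were higher in KO/PEG, but none of them reached the limit of the count filter in the WT libraries alone, so the filter favoured that direction. The largest difference was that of Prg2, the eosinophil major basic protein, with 5 counts in WT/PEG and 182 counts in KO/PEG.

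**Figure D5:**
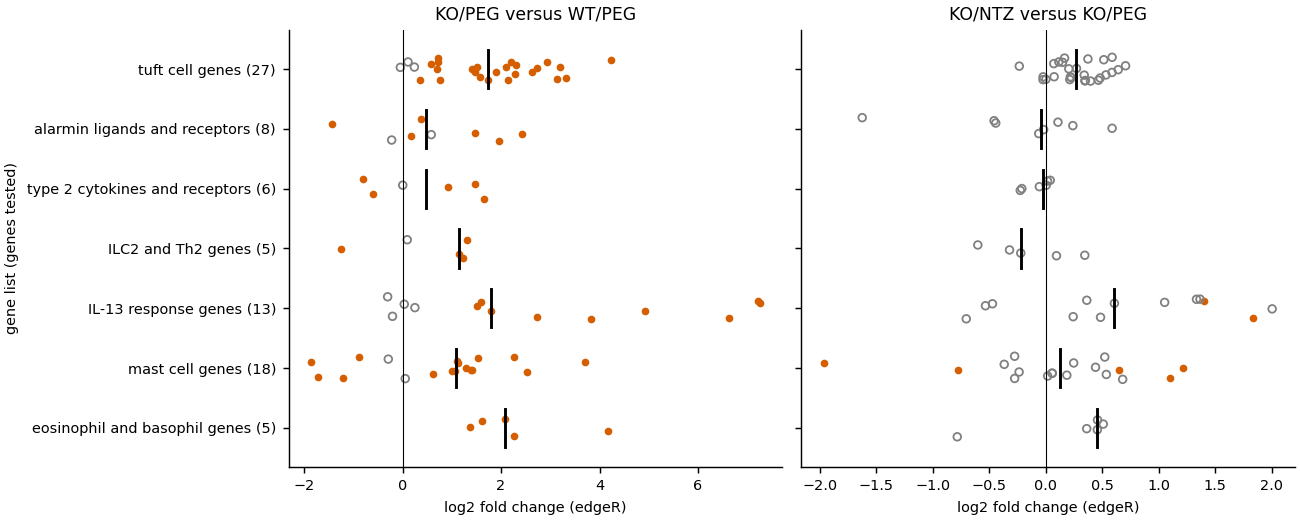
Log2 fold changes from edgeR of the genes tested in 7 lists, for KO/PEG against WT/PEG (left) and KO/NTZ against KO/PEG (right); filled points passed at an adjusted p below 0.05, open points did not, and bars are list medians. On the left most tuft cell, eosinophil and IL-13 response genes lie to the right of 0, and on the right most points are open.

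The comparison of KO/NTZ with KO/PEG asks whether blocking the gastrin receptor altered these genes in mice without gastric acid. None of the 8 genes passed, where 5.56% of all genes did, 2.97% higher and 2.6% lower. At an unadjusted p below 0.05, 1 gene stood out by edgeR, Cpa3, with a log2 fold change of 0.44 (95% interval 0.04 to 0.84, adjusted p = 0.177), and 0 passed by DESeq2 or limma after adjustment. The intervals of the log2 fold change were -0.33 to 0.77 for Trpm5, -0.24 to 0.79 for Pou2f3, -0.21 to 0.66 for Dclk1 and -0.59 to 0.47 for Il1rl1. They were -0.15 to 1.19 for Mcpt1, -0.15 to 0.65 for Mcpt2 and -1.0 to 0.09 for Il33. For each of these genes but Il33, the lower end of the interval was smaller in size than the difference between KO/PEG and WT/PEG. For Il25 the pooled ratio of KO/NTZ to KO/PEG was 1.11 (95% interval 0.742 to 1.64) and for Il13 1.70 (1.11 to 2.61), both for counting error only. Over libraries neither passed (permutation test, adjusted p = 0.74 and 0.262). Among animals numbered below 100, mean Il13 was 0.377 CPM in KO/NTZ and 0.101 CPM in KO/PEG (exact permutation p = 0.0335, adjusted p = 0.067). Mean Il25 was 0.331 and 0.302 CPM there (exact permutation test, adjusted p = 0.87), and again neither passed after adjustment. Among the shares and ratios, 1 passed, the share of ENSMUST00000025724 in the Il33 counts, which was lower in KO/NTZ than in KO/PEG (17.2% against 45.97%, permutation test, adjusted p = 0.0475), and this was lost without library KO_46 (adjusted p = 0.0847 by the permutation test) and among animals numbered below 100 (adjusted p = 0.072 by the exact permutation test).

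No tuft cell gene of the 27 tested passed between KO/NTZ and KO/PEG by edgeR (5 at an unadjusted p below 0.05), nor did any of 8 alarmin genes (2), 6 type 2 cytokine genes (0), 5 ILC2 and T helper 2 genes (1) or 5 eosinophil and basophil genes (1). Of the 13 IL-13 response genes 2 passed and of the 18 mast cell genes 5, where 5.56% of all genes did, and 7 and 8 had an unadjusted p below 0.05. Of the IL-13 response genes, Retnla, a product of macrophages and epithelium under IL-4 or IL-13, was higher with NTZ by 1.83 on the log2 scale (SE 0.407, adjusted p = 0.00397 by edgeR), with medians of 2.75 CPM in KO/PEG and 9.15 CPM in KO/NTZ, and Chil3 was higher by 1.398 (adjusted p = 0.0423 by edgeR). Itln1 had medians of 257 CPM in KO/PEG and 2751 CPM in KO/NTZ (adjusted p = 0.0625 by edgeR) and Clca1 1051 and 2864 CPM (adjusted p = 0.0698 by edgeR), and neither passed. Of the mast cell genes, the tryptases Tpsab1 (1.22, adjusted p = 0.0223 by edgeR) and Tpsb2 (1.10, adjusted p = 0.0182 by edgeR) and the transcription factor gene Gata2 (0.65, adjusted p = 0.0137 by edgeR) were higher with NTZ. Hdc, which makes histamine, fell by 1.97 on the log2 scale, from a median of 67.9 CPM in KO/PEG to 15.04 CPM in KO/NTZ (adjusted p = 1.03e-07 by edgeR), and the amine transporter gene Slc18a2 fell by 0.78. Both are also genes of enterochromaffin-like (ECL) cells, the gastrin-responsive histamine cells of the corpus.

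In WT mice, NTZ changed none of the 8 genes past the threshold, by edgeR, DESeq2 or limma. By edgeR 1.03% of all genes passed higher and 0.00671% lower. At an unadjusted p below 0.05, 3 genes stood out by edgeR, all with higher values under NTZ. Mcpt1 had a log2 fold change of 0.94 (95% interval 0.16 to 1.72, adjusted p = 0.469), Pou2f3 one of 0.75 (0.10 to 1.39, adjusted p = 0.512) and Il1rl1 one of 0.74 (0.11 to 1.37, adjusted p = 0.505), and that of Il1rl1 was 0.18 without library WT_118. Among animals numbered 100 or above, Mcpt1 passed with 1.19 (adjusted p = 0.0299 by edgeR). The effect of NTZ in KO mice minus that in WT mice passed for none of the 8 genes by edgeR, DESeq2 or limma, where 0.96% of all genes passed by edgeR, 0.242% higher and 0.718% lower, and none had an unadjusted p below 0.05. The largest such difference in size was that of Il1rl1, at -0.80 (95% interval -1.63 to 0.03, adjusted p = 0.475 by edgeR).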

How the data were processed

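Messenger RNA of the gastric corpus was measured in 44 libraries, grouped by their labels. The authors quantified reads with kallisto 0.42.4 on GRCm38 and deposited an estimated count per transcript, without normalization. Here 92372 of 94080 transcripts were summed per gene by GENCODE vM21 name, and the other 1708 held 0.329% to 1.31% of a library. Sums were rounded, genes filtered with filterByExpr (minimum count 10, minimum total 15), TMM-normalized and tested in 1 fit of all libraries with edgeR 4.0.16 (quasi-likelihood, R 4.3.3), adjusted by the Benjamini-Hochberg method over 14901 genes with a threshold of 0.05. The study's own test, Sleuth, needs resampled estimates that the deposited counts lack and was not repeated. Il25, Il13, shares and ratios were compared by two-sided permutation tests (100000 resamples, or all splits with a group under 10) and correlations on log2 CPM with a prior count of 2, using scipy 1.17.1. Permutation p-values were adjusted within their family.

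The genes and lists were chosen with earlier results of these data known. Besides the 10 genes, the text names up to 5 further genes per list with the largest change among those past the threshold, and the 3 genes outside the 10 most like each of the 8 tested, of which 1 is not reported here. Other genes were named after their values were seen. Single-transcript values depend on how kallisto divides shared reads. Whether reads were counted by strand is not given in the sources used here, and Trpm5 overlaps Tssc4, and Dclk1 overlaps Gm21954 and Gm42609, on the opposite strand. WT/PEG holds 2 libraries numbered 172, which may share an animal. They differed by more than sampling noise and were counted separately, with fits on their sum and permutation tests on their average as alternatives. The number 110 occurs in both KO groups. The study names fewer KO/PEG mice than there are libraries, so some may share an animal, and p-values measure the spread between libraries. Scripts were tested on simulated data. Alternatives were other size factors (RLE), filters, groups in the fit, animal numbers as subset or covariate, DESeq2 1.42.0, limma 3.58.1 and, added after seeing the data, the mitochondrial share or length slope as covariate, libraries left out and sets of libraries that stood apart.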

Additional observations from a re-analysis of the deposited data

Results flagged for a closer look

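Among 49 measures tested for a library far from the rest, which were the genes and shares named above in the group of 9 WT/NTZ libraries, 10 stood out by Dixon's test. Chance gives about 1 in 20. Library WT_118 accounted for 9 of them. It held 10.3 CPM of Trpm5 (next library 5.23), 1.82 CPM of Pou2f3 (next 1.15) and 14.5 CPM of Il1rl1 (next 4.35). Its Gng13 was 1.16 CPM, its Myd88 35.6 CPM (next 28.4), its Il2rg 11.4 CPM (next 4.35), its Chil4 82.1 CPM (next 22.2) and its Alox15 1.76 CPM (next 0.796). The short Il1rl1 transcript made up 85.6% of the short and long transcripts per kilobase there, against 40.7% in the next library. The same library held 26 CPM of the leukocyte gene Ptprc and 31.3 CPM of the antral hormone gene Gast, and its Atp4b of 2140 CPM was the lowest of the WT libraries. The part of these in its values was not tested. Library WT_117 held 223 CPM of Fcgbp (next 112). Its Gast, at 40 CPM, was above that of WT_118, and it held 5.23 CPM of Trpm5 and 2.61 CPM of Il1rl1.

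The effect of NTZ on Hdc differed between the genotypes. NTZ in KO minus NTZ in WT was -1.22 on the log2 scale (SE 0.310, adjusted p = 0.0391 by edgeR), with -1.97 in KO mice and -0.75 in WT mice (adjusted p = 0.142 by edgeR).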

How the results depend on the processing

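No paired analysis was possible because the groups compared shared fewer than 2 animal numbers. Between KO/PEG and WT/PEG 7 of the genes passed, and 5 to 9 under the alternatives, of which 9, with Il25 and Il13, without a filter. Numbers of all genes called moved most. Between KO/NTZ and KO/PEG they were 829, but 267 with only these groups in the fit, 256 in animals numbered below 100, 1288 with number as covariate, 1249 by DESeq2 and 1691 with the length slope. Between WT/NTZ and WT/PEG they were 154, but 0 with only these groups (1166 of all genes had an unadjusted p below 0.05 in the fit of all groups), 485 in animals numbered 100 or above, 312 with number as covariate, 2 by limma, 72 with the length slope and 57 without library WT_118; 1 of the 8 genes, Mcpt1, passed in animals numbered 100 or above. With the length slope, KO/PEG and WT/PEG differed in 4881 genes (11125 without it), and KO/NTZ and WT/NTZ in 3144 (10791 without it), including 3 of the 8 genes (Dclk1, Mcpt1 and Mcpt2). The difference of NTZ effects gave 274 by DESeq2, 53 by limma, 259 with the mitochondrial share, 1461 with the length slope and 88 without library WT_118. By Pearson r 6 correlations passed in KO/PEG, but 0 below number 100 and 3 at 100 or above, and in KO/NTZ 3, but 1 below 100, and by Spearman rho 6, 1 and 1, and 3 and 3. With the pair of WT/PEG libraries that bear one number summed, the number of the 8 genes that passed was as without it in each comparison, and with them averaged, of the shares, ratios and means involving WT/PEG only the Mcpt1 to Mcpt2 ratio between WT/NTZ and WT/PEG was lost. Values that turned sign passed no threshold. For KO/NTZ against KO/PEG, Il1rl1 was 0.035 without number 110, 0.32 below 100 and 0.28 with number as covariate, and its short share 0.0386 points below 100. For WT/NTZ against WT/PEG, Dclk1 was 0.016 with RLE, 0.000307 unfiltered, 0.032 with these groups only, 0.34 at 100 or above, 0.028 with number as covariate, 0.012 by DESeq2, 0.035 with the mitochondrial share, 0.11 with the length slope and 0.62 by its top transcript; Il33 was 0.20 at 100 or above and 0.056 with number as covariate, its transcript share -1.53 points at 100 or above, Il25 -0.00706 CPM at 100 or above, and the short Il1rl1 share -3.16 points without library WT_118. For the difference of NTZ effects, Trpm5 was 0.17 by limma, 0.061 with the length slope and 0.15 without library WT_118, and Dclk1 -0.078 by its top transcript. Correlations in KO/PEG turned for Trpm5 and Il13 (-0.262 at 100 or above, -0.0513 without library KO_46) and Il13 and Mcpt1 (-0.279 at 100 or above), and in KO/NTZ for Il13 and Tff2 (-0.0483 with a prior count of 0.25). In KO/PEG they also turned for Il33 and Il13 (0.102 at 100 or above, 0.0434 without library KO_46). The same held for Il1rl1 with Il13 (-0.063 below 100, -0.136 at 100 or above) and with Cpa3 (-0.214 below 100, -0.0865 at 100 or above). The causes were not tested. Depth limits Il25 and Il13 most, since most WT libraries held no or 1 count of either.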
